A study of Homo sapiens with 2 samples.

Results

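The genes described here encode the NF-kB pathway, from its DNA-binding subunits, their inhibitors and the kinases and adaptors that lead to them to the feedback genes and targets that NF-kB switches on. They were taken as a list of 45 gene symbols, with chemokines and interleukin 1 genes left out, and every probe set whose annotation named 1 of these genes alone was kept. Of the 45 genes, 42 had such a probe set, 98 probe sets in all, out of 19775 genes and 54675 probe sets on the array. The array values of BCL3, TRAF2 and IRAK4 were not analysed here, but their promoters are among those searched below. The values come from H322c cells, an established non-small cell lung cancer line of epithelial type, cultured for 4 days with 1 µM gefitinib, an inhibitor of the EGFR tyrosine kinase, or with 0.1% DMSO as the control. Each condition is 1 Affymetrix U133 Plus 2.0 array, so there was no replicate spread, no test was possible, and each difference describes these 2 arrays of 1 cell line.

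NF-kB is a family of dimers built from the products of NFKB1, NFKB2, REL, RELA and RELB. In resting cells inhibitors of the IkB family hold most dimers in the cytoplasm. Toll-like receptors, NOD receptors and receptors of the TNF family act through adaptors of the TRAF, MYD88 and CARD families on the IkB kinases, which mark the inhibitors for destruction. The freed dimers switch on inflammatory, adhesion and survival genes and also the genes of their own inhibitors, NFKBIA and TNFAIP3 among them, which closes a feedback loop. In airway epithelium the pathway is known for its response to microbes and cytokines, and EGFR signaling is among the inputs that can reach it.

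The NF-kB binding sequence, the kB consensus, is a run of G, a purine, any base, A or T, pyrimidines and a closing pair of C. It was searched on both strands of RefSeq promoter windows of GRCh38.p14, each from 250 bases before to 50 bases after the gene's start. A match was held by 11 of the 40 listed genes with a window, against 5.72% of all promoters (1562 of 27305). The list includes genes chosen as known NF-kB targets, so this share is not independent of how it was made. Outside the list, 3 of 34 windows of other pathway genes held a match, and 10 of 29 of other known targets. RELB, NFKBIE, IKBKB, RIPK2 and CD40 had no window here. The members with a match did not share a direction on the arrays. Among genes at least 2-fold higher with gefitinib 2 of 6 windows held it, among those at least 2-fold lower 1 of 2, and among measured genes not called 5 of 22. These counts are a description, and a match of letters is not a binding site. The stretches below are shown because their genes span the range of the results: NFKBIA, TNFAIP3 and NFKB1 stayed within 2-fold, MAP3K8 and TRAF3 were higher and TICAM1 was lower. They read 5′ to 3′ on the gene's strand, with the kB matches in capitals.
NFKBIA, chr14:35404801-35404850, minus strand: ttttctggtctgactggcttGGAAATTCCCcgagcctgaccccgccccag
TNFAIP3, chr6:137867172-137867233, plus strand: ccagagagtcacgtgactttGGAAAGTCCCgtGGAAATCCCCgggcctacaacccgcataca
NFKB1, chr4:102501290-102501339, plus strand: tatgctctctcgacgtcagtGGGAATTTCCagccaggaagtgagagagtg
MAP3K8, chr10:30433972-30434020, plus strand: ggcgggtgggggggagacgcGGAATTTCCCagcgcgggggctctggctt
TRAF3, chr14:102777396-102777445, plus strand: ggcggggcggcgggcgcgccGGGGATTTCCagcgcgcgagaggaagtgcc
TICAM1, chr19:4831803-4831852, minus strand: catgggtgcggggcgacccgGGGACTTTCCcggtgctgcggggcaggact

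The matches of NFKBIA, TNFAIP3 and MAP3K8 are on the opposite strand, and all of these matches lie before the gene's start. That of MAP3K8 ran from -29 to -20, where -1 is the base just before the start, that of TRAF3 from -33 to -24 and that of TICAM1 from -120 to -111. TNFAIP3 held a pair, from -67 to -58 and from -55 to -46. The other members with a match were REL, NFKBIZ, BCL3, TNFRSF9 and LTB. The matches of REL and of TNFRSF9 were overlapping pairs on opposite strands.

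The deposited values are MAS5 signals on a linear scale. Signals under 100, the floor, were set to 100, and a gene counted as measured if any of its probe sets reached the floor on either array. Its value was taken at the brightest probe set, and a difference was called from 2-fold. Where the lower signal lay under the floor, only a minimum fold can be given, marked by the words at least. Signals are compared between the arrays for the same probe set only. Since the RNA came from whole cultures, fewer cells of a kind and less RNA per cell cannot be told apart. The log2 ratio varied between probe sets of a gene with an SD of 0.58 over 5432 genes on the arrays and 0.53 over the 18 members with several measured probe sets. This spread is between probe sets, not between cultures.

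The epithelial label of the cells was borne out by its markers. Between the arrays, 3 of the 6 epithelial markers looked at were higher with gefitinib and 3 lower, all within 2-fold. All 6 were at or above the floor, with EPCAM at 14038.1 under DMSO and 15823.9 under gefitinib. None of the 6 leukocyte markers with a probe set reached it, and their highest signal was 60.2. Of 5 fibroblast markers only COL1A1 was measured, at 420.8 and 950.2 on the DMSO and gefitinib arrays. Of 4 endothelial markers VWF was under the floor with DMSO and at 496.0 with gefitinib, PECAM1 had 128.4 and 78.0, while the defining endothelial marker CDH5 stayed at 15.4 or lower. Any part of these in the results below was not tested.

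Of the 42 genes, 35 were measured, through 65 probe sets. On the gefitinib array 7 of them were at least 2-fold higher: MAP3K8, ICAM1, TNFAIP2, TRAF3, TAB1, IKBKB and TAB2. Only 3 were at least 2-fold lower: TICAM1, RIPK2 and NFKB2. The remaining 25 were not called, 1 of them, MYD88, with a bound that leaves its side of 2-fold unknown. Of all 11223 measured genes, 13.3% were at least 2-fold higher, against 7 of the 35 members, and 6.20% were at least 2-fold lower, against 3 of the 35. Nothing particular to the pathway is read from these small counts. The members' median log2 ratio was 0.013, with 18 genes above 0 and 17 below, and the median of all measured genes was 0.12. ICAM1 and TAB1 entered this count through the gefitinib array alone and MYD88 through the DMSO array alone. With both signals required to reach the floor, 5 were higher and 3 lower of 32 genes. Of all 10211 genes that met this requirement, 12.3% were higher and 6.23% lower.

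**Figure D1:**
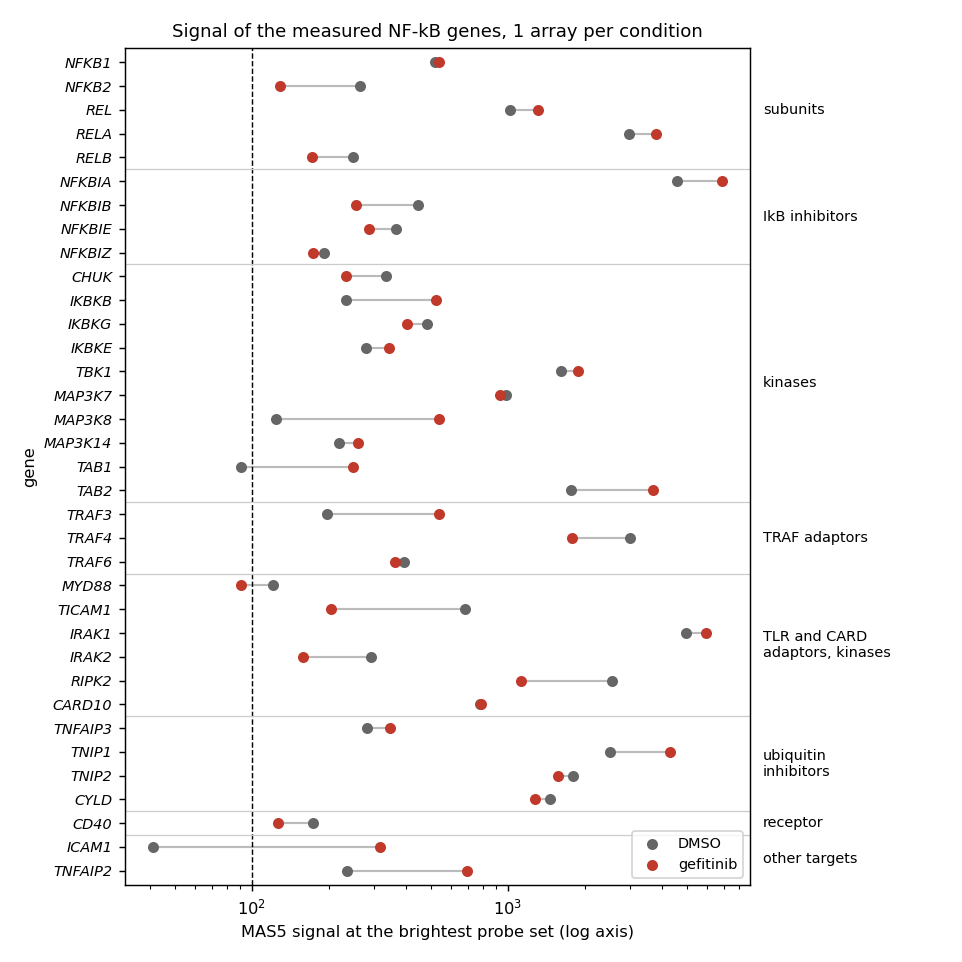
MAS5 signal (horizontal log axis) of the 35 measured NF-kB genes at their brightest probe set on the single DMSO array (grey points) and the single gefitinib array (red points), grouped by role. The dashed line is the floor of 100; the longest gaps to the right of it are those of MAP3K8 (124.3 to 535.8) and TICAM1 (682.4 to 202.8).

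The subunits differed little between the arrays, apart from NFKB2. RELA, the main activating subunit, had signals of 2976.5 under DMSO and 3782.5 under gefitinib, 1.27-fold higher (log2 ratio 0.35), and 0.37 at its other probe set. NFKB1, the precursor of its usual partner, had 521.1 and 538.1, a log2 ratio of 0.046. REL was higher at each of its 4 measured probe sets, by log2 ratios from 0.27 to 0.90. Its brightest had 1022.5 and 1308.9, 1.28-fold higher. The 3 subunits of the canonical pathway therefore lay within 2-fold at every measured probe set.

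NFKB2 and RELB form the dimer of the noncanonical branch, and both were lower with gefitinib. NFKB2 had signals of 265.0 under DMSO and 128.5 under gefitinib at its brightest probe set, 2.06-fold lower (log2 ratio -1.04). At the other, signals of 153.4 and 135.4 gave a log2 ratio of -0.18. RELB, measured by a single probe set, had 248.1 and 171.5, 1.45-fold lower and within 2-fold. The call of NFKB2 sat at the threshold: it was lost as the mean over probe sets (-0.61), with a floor of 200 (a bound of -0.41), with log2 of the signal plus 50 (-0.82), when GAPDH (-0.82) or the control probe sets (-0.90) set the scale, and at the probe set left without those ending in _x_at or _s_at (-0.18).

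No inhibitor of the IkB family passed 2-fold, although NFKBIB reached a log2 ratio of -1.01 with lowess correction. NFKBIA, the inhibitor that NF-kB itself induces to end its activity, had signals of 4549.5 under DMSO and 6843.1 under gefitinib, a log2 ratio of 0.59. The other 3 were lower or level. NFKBIB had 445.0 and 254.8 at its brightest probe set, 1.75-fold lower, and its log2 ratios were -0.90 and -0.10 at the remaining ones. Of these, the probe set at -0.10 is the only measured NFKBIB probe set whose name does not end in _x_at, the mark of probes that may bind other transcripts. NFKBIE had 366.8 and 287.0, 1.28-fold lower. NFKBIZ, an atypical nuclear member that helps NF-kB at selected genes, had 191.8 and 173.2, 1.11-fold lower.

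Among the kinases and the partners bound to them, MAP3K8, IKBKB, TAB1 and TAB2 were called higher of 10 genes, where 13.3% of all measured genes were, and none was called lower. All but MAP3K8, which was measured at 1 probe set only, lost the call under at least 1 alternative. MAP3K8 had the highest ratio among members that reached the floor on both arrays, the ratio of ICAM1 being a bound. This kinase is bound by the NFKB1 precursor and passes Toll-like receptor and TNF signals to MEK and ERK. Its signal was 124.3 under DMSO and 535.8 under gefitinib, 4.31-fold higher (log2 ratio 2.11). Its second probe set was under the floor on both arrays, at 70.2 and 62.3. With a floor of 200 the value became a bound of 1.42, still past 2-fold.

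IKBKB, the IkB kinase that drives the canonical pathway, had signals of 233.5 under DMSO and 521.7 under gefitinib, 2.23-fold higher (log2 ratio 1.16). At its other measured probe set, 119.1 and 170.6 gave 0.52. The call was lost, with log2 ratios of 0.96, 0.97, 0.96 and 0.84, under quantile normalization, spike-in scaling, lowess correction and the mean over probe sets. Its partners in the kinase complex were not higher. CHUK, the catalytic partner, had 332.8 and 232.3, 1.43-fold lower. IKBKG, the regulatory scaffold, had 484.3 and 402.9, a log2 ratio of -0.27, against 0.11 at its other probe set. IKBKG has a near-identical partial copy in the genome, so its signals may include that copy. Within this complex the log2 ratios thus ran from -0.52 to 1.16 at the brightest probe sets.

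MAP3K7, the kinase that activates the IkB kinases, had signals of 978.9 under DMSO and 930.7 under gefitinib (log2 ratio -0.073), and its 4 probe sets lay between -0.35 and -0.045. TAB1, which activates it by binding, had 90.5 and 247.2, at least 2.47-fold higher. TAB2, which tethers it to ubiquitin chains, had 1761.7 and 3679.3, 2.09-fold higher (log2 ratio 1.06), and 0.58 at its other measured probe set. TAB3, a further partner outside the 45 genes named here after its values were seen, had 2127.2 and 3532.3, 1.66-fold higher, and a bound of -0.40 at its other measured probe set. TAB1 and TAB2 were thus past 2-fold, and MAP3K7 and TAB3 were not. The value of TAB1 rests on a DMSO signal just under the floor, so that a floor of 200 left a bound of 0.31, short of 2-fold. TAB2 was short of 2-fold with spike-in scaling (0.87), with centring on the median gene (0.95) and as the mean over probe sets (0.82).

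The other kinases were within 2-fold. MAP3K14, which starts the noncanonical branch, had signals of 218.9 under DMSO and 260.2 under gefitinib, 1.19-fold higher. TBK1, a relative of the IkB kinases that also serves the interferon response, had 1610.1 and 1876.1, 1.17-fold higher. IKBKE, its close relative, had 279.0 and 343.3 at its brightest probe set, a log2 ratio of 0.30, against -0.48 at the other.

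Among TRAF adaptors, TRAF3 was higher and TRAF4 was lower short of 2-fold. TRAF3 restrains the noncanonical branch by having MAP3K14 degraded. Its brightest probe set had 196.1 under DMSO and 539.1 under gefitinib, 2.75-fold higher (log2 ratio 1.46). The other had 143.8 and 139.6, a log2 ratio of -0.043, so the probe sets disagreed and their mean was 0.71, short of 2-fold. TRAF4, an epithelial member of the family, had 2984.4 and 1774.6, 1.68-fold lower (log2 ratio -0.75). Across its 4 probe sets the log2 ratio ran from -1.06 to 0.15. TRAF6, the adaptor of Toll-like and interleukin 1 receptors, had 392.9 and 363.7 at its brightest probe set (-0.11) and a log2 ratio of 0.41 at the other. TRAF1 and TRAF5 stayed under the floor on both arrays, with no signal over 33.5.

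Of the 6 measured Toll-like receptor and CARD adaptors and kinases, TICAM1 and RIPK2 were called lower, where 6.20% of all measured genes were. TICAM1, the adaptor of TLR3 and of the endosomal branch of TLR4, had signals of 682.4 under DMSO and 202.8 under gefitinib, 3.36-fold lower (log2 ratio -1.75). Among the measured members this was the lowest ratio. RIPK2, the kinase that carries NOD1 and NOD2 signals, had 2556.5 and 1119.7, 2.28-fold lower (log2 ratio -1.19). Its other probe set had 154.6 and 93.2, at least 1.55-fold lower. The call of RIPK2 was lost when the arrays were scaled to GAPDH (-0.97), as the mean over probe sets (-0.91), and without probe sets ending in _x_at or _s_at (a bound of -0.63).

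The interleukin 1 receptor kinases differed by less. IRAK2 had signals of 291.4 under DMSO and 159.0 under gefitinib, 1.83-fold lower (log2 ratio -0.87), and passed 2-fold under quantile normalization (-1.09), spike-in scaling (-1.06) and lowess correction (-1.14). IRAK1 had 4970.0 and 5950.4 at its brightest probe set, a log2 ratio of 0.26, and 0.21 at the other. MYD88, the adaptor shared by most Toll-like receptors, had 121.2 and 90.3, at least 1.21-fold lower, a bound too close to the floor to place it on either side of 2-fold. CARD10, the scaffold that links receptors of epithelial cells to BCL10 and MALT1, had 778.0 and 785.0, a log2 ratio of 0.013.

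The inhibitors that act on ubiquitin chains, most of them NF-kB targets themselves, were within 2-fold at their brightest probe sets. TNFAIP3, a standard readout of NF-kB activity, had signals of 280.7 under DMSO and 344.7 under gefitinib, 1.23-fold higher, and a log2 ratio of 0.016 at its other probe set. TNIP1, its binding partner, had 2493.8 and 4292.1, 1.72-fold higher (log2 ratio 0.78), and reached 1.01 only when the arrays were scaled to GAPDH. TNIP2 had 1796.5 and 1562.3, 1.15-fold lower, with its 3 probe sets between -0.36 and -0.069.

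CYLD, a deubiquitinase that dampens the pathway, gave opposite answers at different probe sets. The brightest had signals of 1462.1 under DMSO and 1279.4 under gefitinib, a log2 ratio of -0.19. Another 3 were higher with gefitinib: the first had 420.9 and 824.3 (log2 ratio 0.97), the next 171.6 and 342.0 (0.99) and the last 232.8 and 616.0 (1.40). The remaining 2 were lower and lay under the floor on the gefitinib array, with 169.0 and 47.9 (a bound of -0.76) and with 145.6 and 42.6 (a bound of -0.54). No direction can be given for CYLD. Of the 18 members with several measured probe sets, 6 had them on both sides of 0: CYLD, IKBKG, IKBKE, TRAF3, TRAF4 and TRAF6.

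**Figure D2:**
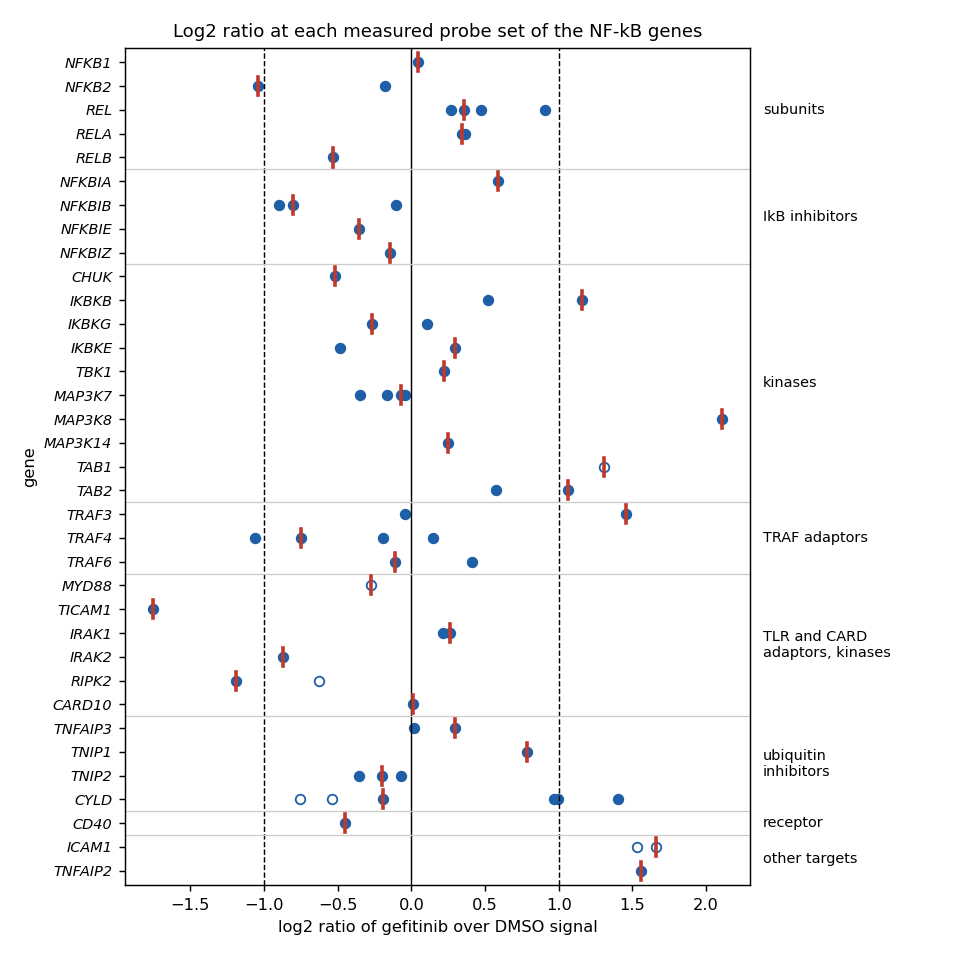
Horizontal axis, log2 of the gefitinib signal over the DMSO signal at each of the 65 measured probe sets of the NF-kB genes, from a single array for each condition. Open points are bounds with a signal under the floor, filled points are not, a red bar shows which probe set was brightest and dashed lines stand at 2-fold; the 6 CYLD probe sets run from -0.76 to 1.40.

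Receptors and ligands within the list were mostly under the floor. Of receptors outside it, TNFRSF1A had signals of 3181.1 under DMSO and 3285.8 under gefitinib, and LTBR had 1614.3 and 2161.2. TNFRSF1B was under the floor on both arrays. Within the list the same held for several genes. TLR2, TLR4, TNFRSF9, TNF and LTB reached the floor on neither array. The highest signal of TLR2 was 27.9, and TNF, a ligand and target of the pathway, had 5.2 under DMSO and 37.7 under gefitinib, from which no ratio was taken. LTB, a ligand of the noncanonical branch, was listed at 22.0 and 61.9. CD40, a receptor of the TNF family, was measured at 1 of its 4 probe sets, with 172.9 and 126.7, 1.36-fold lower.

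The 2 measured targets that are neither part of the pathway nor its inhibitors were both called higher, where 13.3% of all measured genes were. ICAM1 was counted through the gefitinib array alone, and nothing about targets as a group is read from 2 genes. ICAM1, the adhesion molecule that binds leukocyte integrins and a classical NF-kB target, had signals of 41.3 under DMSO and 315.8 under gefitinib, at least 3.16-fold higher. A second probe set had 66.8 and 288.7, at least 2.89-fold higher, and the remaining one was under the floor. TNFAIP2, a TNF-induced gene of epithelial and endothelial cells, had 235.4 and 693.2, 2.94-fold higher (log2 ratio 1.56), while its other probe set was under the floor. With a floor of 200 the bound of ICAM1 was 0.66, short of 2-fold, because its gefitinib signals are low.

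Targets of NF-kB within the list thus went separate ways. ICAM1 and TNFAIP2 were past 2-fold higher, the feedback genes NFKBIA and TNFAIP3 were higher within 2-fold (log2 ratios of 0.59 and 0.30), and the targets NFKB2 and RELB were lower, the former past 2-fold. TRAF1, another common target, was not measured.

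Of the 10 calls, MAP3K8, TNFAIP2 and TICAM1 stayed past 2-fold in every alternative that gave them a value. Each of these was measured at 1 probe set only, so other choices of probe set repeated its value or gave none. Their agreement over probe sets was thus not tested. None of the 10 changed sign in any alternative, which the small constant shifts of most scalings could not have brought about. How many members were called depended on the scaling of the arrays. Scaled to GAPDH, 8 were higher and 1 lower, where 19.2% and 3.91% of all measured genes were. Scaled to the hybridization spike-ins, 5 were higher and 4 lower, where 9.42% and 9.25% of all measured genes were.

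**Figure D3:**
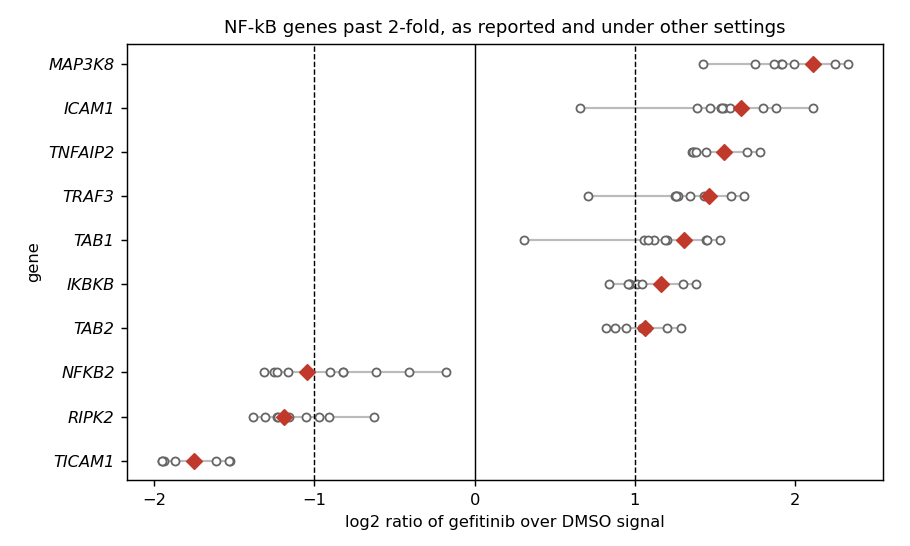
Horizontal axis, log2 of the gefitinib signal over the DMSO signal for the 10 NF-kB genes past 2-fold, as reported (red diamonds) and under each alternative scaling, floor or choice of probe sets that gave a value (open circles), with dashed lines at 2-fold. MAP3K8, TNFAIP2 and TICAM1 keep all their circles outside the dashed lines, while TAB1 reaches down to 0.31 and NFKB2 up to -0.18.

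Genes of the pathway outside the 45 were also counted. Of 40 such genes listed, 36 had a probe set and 32 were measured, 7 of them at least 2-fold higher and 3 at least 2-fold lower, with a median log2 ratio of 0.052. These are 21.9% and 9.38%, where 13.3% and 6.20% of all measured genes were. The list was chosen with earlier results of these data known, so nothing particular to the pathway is read from its shares. The number higher was 4 with spike-in scaling or centring on the median gene. Of the higher calls, TLR1, TLR3 and TBKBP1 entered through the gefitinib array alone. With both signals required to reach the floor, 4 were higher and 3 lower, where 12.3% and 6.23% of all such genes were. The receptors TNFRSF11A, TLR5 and TLR3 had the highest ratios. TNFRSF11A, the receptor for RANK ligand, had 181.6 under DMSO and 996.3 under gefitinib, 5.49-fold higher, and a log2 ratio of 1.21 at its other probe set. TLR5, the flagellin receptor, had 191.0 and 1020.1, 5.34-fold higher. TLR3, the receptor for double-stranded RNA, had 25.6 and 484.8, at least 4.85-fold higher.

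Lower in this list were ITCH, BCL10 and TLR6. ITCH, a ubiquitin ligase that works with TNFAIP3, had 3301.1 under DMSO and 736.0 under gefitinib, 4.49-fold lower, and all 6 of its probe sets were below 0, from -2.17 to -0.20. BCL10, which joins CARD proteins to MALT1, had 6672.8 and 1551.6 at its brightest probe set, 4.30-fold lower, and its log2 ratios reached -4.10 at another. TLR6 had 385.2 and 144.5, 2.67-fold lower, and a log2 ratio of -0.41 at its other probe set. MALT1, the protease bound by BCL10, had 625.7 and 397.0, 1.58-fold lower, but its probe sets ran from -0.66 to 1.43. In the scaffold of CARD10, BCL10 and MALT1, the log2 ratios at the brightest probe sets were therefore 0.013, -2.10 and -0.66.

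In 2 pairs picked after the values were seen, a receptor and the protein that serves it were on opposite sides. TLR3 was at least 4.85-fold higher and its adaptor TICAM1 3.36-fold lower. NOD2, which senses bacterial wall fragments, had signals of 122.8 under DMSO and 293.0 under gefitinib, 2.39-fold higher, and its kinase RIPK2 was 2.28-fold lower. Other pairs were mixed. TLR6 and its adaptor MYD88 were both lower, MYD88 by a bound that does not place it against 2-fold. The Toll-like receptors TLR5 and TLR1 were 5.34-fold and at least 2.42-fold higher, on the other side from MYD88. TNFRSF11A was higher while its adaptor TRAF6 was within 2-fold. Signaling through these receptors was not measured.

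Known NF-kB targets outside the 45 were counted the same way. Of 36 listed, 31 had a probe set and 19 were measured. Among these, 6 were at least 2-fold higher and 4 at least 2-fold lower, with a median log2 ratio of 0.36. These are 31.6% and 21.1%, where 13.3% and 6.20% of all measured genes were. This list too was chosen with earlier results of these data known, so nothing particular to NF-kB targets is read from its shares. Of the higher calls, C3 and LCN2 entered through the gefitinib array alone. With both signals required to reach the floor, 4 targets were higher and 4 lower, where 12.3% and 6.23% of all such genes were. The death ligand TNFSF10 had 162.6 under DMSO and 1137.3 under gefitinib, 6.99-fold higher, and all 3 of its probe sets were past 2-fold. The complement component C3 had 86.9 and 488.8, at least 4.89-fold higher, and CD83, a surface protein of activated immune cells, had 123.2 and 537.4, 4.36-fold higher. TNFSF15, NOD2 and LCN2 made up the rest of the higher calls.

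The lower calls among targets were IER3, GADD45B, PLAU and CFLAR, and the first 3 had the larger folds. IER3, an immediate early gene, had 11565.2 under DMSO and 2352.4 under gefitinib, 4.92-fold lower. GADD45B, a stress gene, had 8280.8 and 2573.3, 3.22-fold lower, and PLAU, the urokinase, had 12662.4 and 4006.6, 3.16-fold lower. CFLAR, a caspase inhibitor, was 2.06-fold lower at its brightest probe set, though its 11 measured probe sets ran from -1.20 to 1.58.

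**Figure D4:**
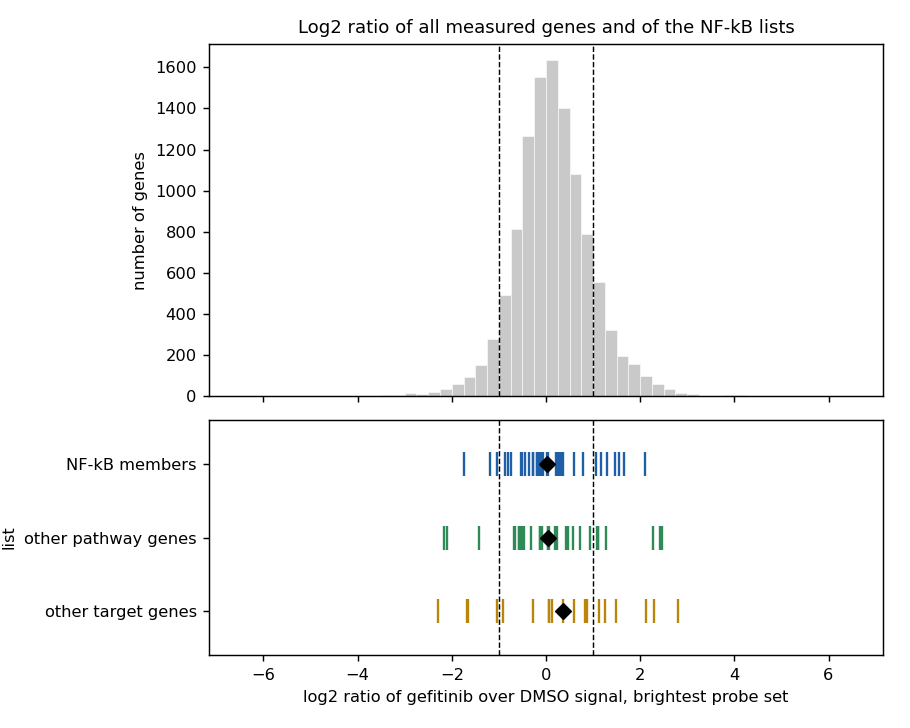
Upper panel, number of genes (vertical axis) by log2 of the gefitinib signal over the DMSO signal (horizontal axis) for all 11223 measured genes. Lower panel, the same ratio for each measured gene (bars) and the median (diamonds) of the 35 NF-kB members, 32 other pathway genes and 19 other targets, with medians of 0.013, 0.052 and 0.36; dashed lines mark 2-fold.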

How the data were processed

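RNA of H322c cells, plated 24 hrs before treatment, was hybridized to 1 array per condition. The authors deposited signal intensities on a linear scale, made with MAS5 per the submitters' processing notes (version not given in the sources used here). This program subtracts background, corrects perfect-match by mismatch probes and multiplies an array by a factor of its own. The 2% trimmed mean was 500.1 on each array, so a shift of most transcripts together would not be seen. Of 54675 probe sets, the platform annotation paired 41097 with a single gene, 1801 with several (not named) and left 11777 unlisted. Symbols were updated through 41043 matched gene identifiers. Under the floor lay 61.6% of DMSO and 60.4% of gefitinib signals.

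Ratios were computed on a log2 scale as the report states. Members, roles, the other lists, the called fold and the alternatives were chosen with earlier results of these data known. Text values cover all measured probe sets of subunits, IkB inhibitors, members past 2-fold and members whose probe sets opposed each other by over 1.5-fold, and up to 6 genes of each other list by size. MALT1, NOD2, TAB3, TNFSF15, LCN2, CFLAR, TLR1, TBKBP1, TNFRSF1A, TNFRSF1B and LTBR were named after their values were seen. Alternatives were 5 other scalings, other floors (50, 200, or log2 of the signal plus 50), other choices of probe set and folds of 1.5 or 3. After seeing the data, centring on the median gene and requiring both signals at the floor were added. The number of arrays limits the precision. The procedure was tested on simulated data. Python 3.11.15 was used with numpy 2.4.6, pandas 2.3.3, statsmodels 0.14.6, scipy 1.17.1 and matplotlib 3.10.9.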

Additional observations from a re-analysis of the deposited data

How the results depend on the processing

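No called member changed sign. Of 470 member log2 ratios recomputed, 10 moved by more than the spread between probe sets of a gene, in 8 genes. Many had little room to move. Scaling to control probe sets, GAPDH, spike-ins or the median gene shifted an array by a constant of 0.14, 0.22, 0.19 or 0.12 in size. Each is under the spread of 0.58 and too small to reverse a call. A member with 1 measured probe set repeated its value, or gave none, under other choices of probe set. The number of members higher with gefitinib, 7 as reported, was 4 as the mean over probe sets, 2 without probe sets ending in _x_at or _s_at (21 members measured) and 2 at a ratio of 3, and ran from 5 to 8 over the scalings. The number lower, 3 as reported, was 1 when scaled to GAPDH and as the mean over probe sets. It was also 1 without _x_at and _s_at and at a ratio of 3. With lowess correction it was 5, and at a ratio of 1.5 it was 6. The shares of all measured genes higher and lower moved too. They were 11.0% and 5.6% as the mean over probe sets, and 14.4% and 6.01% without _x_at and _s_at. With lowess correction they were 10.1% and 7.3%. At a ratio of 3 they were 4.78% and 2.05%, and at a ratio of 1.5 they were 26.4% and 14.9%. The median log2 ratio of the members, 0.013, followed the scaling: -0.15 with quantile normalization and with lowess correction, 0.15 centred on control probe sets, 0.24 scaled to GAPDH, -0.18 scaled to spike-ins and -0.10 centred on the median gene. It was 0.13 with a floor of 200 and -0.10 without _x_at and _s_at. The median of all genes ran alongside, from -0.065 with spike-in scaling to 0.33 with GAPDH. Of other pathway genes, 4 were higher with spike-in scaling, centred on the median gene or with both signals at the floor. The shares of all measured genes higher were then 9.42%, 10.9% and 12.3%. At a ratio of 3, 3 other pathway genes were higher, and at a ratio of 1.5, 5 were lower. Of other targets, 3 were higher at a ratio of 3 and 0 lower without _x_at and _s_at. The latter setting left IER3 and PLAU with no value. It left GADD45B with a dim probe set (log2 ratio -0.25) and CFLAR with another (a bound of 1.58). Low signals limit ICAM1, TAB1 and MYD88, whose folds are bounds. No paired analysis was possible because each condition had 1 array.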
